A study of Mus musculus with 20 samples.

Results

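The map described here joins 3 histone marks in WT progenitor chromatin: H3K27ac, H3K4me1, and H3K4me3, each from 1 ChIP-Seq library of Lin- bone marrow cells. All peaks of the 3 WT lists that shared at least 1 bp were merged into regions, and each region was classed by which of the 3 marks had a peak in it, which gives 7 combinations. This yielded 108358 regions covering 81.6 Mb, against 132133 regions when the peaks of all 12 lists of the series were merged in the same way. The WT mice were Ep300 fl/fl animals without the Mx1-Cre transgene, on a C57BL/6 background, and were injected with poly(I:C), an inducer of interferon, like every other group, so the controls carry floxed Ep300 alleles and the same injections. The other groups all carry floxed Ep300 as well. Ep300Δ/Δ mice add Mx1-Cre, Tet2-/- mice lack Tet2 and have no Cre, and Ep300Δ/ΔTet2-/- mice have both changes, with Cre under the interferon-inducible Mx1 promoter, which is not restricted to blood cells. The study used males and females, and the labels do not give the sex, age, or number of animals behind each library. Lin- cells are the marrow cells left after magnetic removal of cells with markers of mature lineages, so they are a mixture of stem cells, progenitors, and precursors.

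H3K4me3 is a methylation of the histone H3 tail that lies over active or poised promoters, and H3K4me1 covers enhancers and the flanks of promoters. H3K27ac, written by the acetyltransferases p300 and CBP, lies at promoters and enhancers that are in use. Enhancers of blood cells are bound by factors such as RUNX1, PU.1, GATA2, and members of the C/EBP family, whose genes often lie within clusters of enhancers of their own. In a mixture of cells, a mark in fewer cells and a weaker mark in every cell cannot be told apart, and marks found in the same region need not lie on the same chromosome copies.

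The sequence under the marks differed between classes in CpG content. The following stretches of GRCm38 (the assembly also called mm10) are examples. They do not separate class from place, since the first 5 are distal and the other 3 hold a transcript start. Each is the plus strand, 120 bases centered on the H3K27ac summit (the H3K4me3 summit for Pcca), with every CpG in capitals. The first 5 lie in distal regions with H3K27ac and H3K4me1: for each stem cell or myeloid transcription factor with such regions nearest to it, the region with the highest H3K27ac fold was taken, and the 5 highest are shown.
Lmo2, chr2:103906844-103906963, intergenic: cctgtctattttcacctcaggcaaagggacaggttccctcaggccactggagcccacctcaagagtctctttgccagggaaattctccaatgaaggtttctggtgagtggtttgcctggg
Gfi1, chr5:107749501-107749620, intron: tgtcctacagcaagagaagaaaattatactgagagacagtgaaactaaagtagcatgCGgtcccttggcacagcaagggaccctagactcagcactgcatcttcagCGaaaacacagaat
Klf6, chr13:5804500-5804619, intergenic: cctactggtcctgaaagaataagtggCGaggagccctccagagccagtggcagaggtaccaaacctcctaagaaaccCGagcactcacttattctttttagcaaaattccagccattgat
Id2, chr12:25251674-25251793, intergenic: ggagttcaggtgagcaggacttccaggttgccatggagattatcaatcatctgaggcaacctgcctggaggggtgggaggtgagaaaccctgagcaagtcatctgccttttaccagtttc
Etv6, chr6:134186800-134186919, intron: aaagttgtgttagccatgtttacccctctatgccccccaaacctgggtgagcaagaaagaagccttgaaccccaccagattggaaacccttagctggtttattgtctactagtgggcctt
The other 3 hold a transcript start and have the highest fold of their class (all 3 marks for Usp48, H3K27ac and H3K4me3 for Prrc2c, H3K4me1 and H3K4me3 for Pcca).
Usp48, chr4:137593856-137593975, promoter: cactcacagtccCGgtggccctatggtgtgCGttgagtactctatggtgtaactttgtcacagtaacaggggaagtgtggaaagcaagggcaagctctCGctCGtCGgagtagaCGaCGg
Prrc2c, chr1:162740314-162740433, promoter: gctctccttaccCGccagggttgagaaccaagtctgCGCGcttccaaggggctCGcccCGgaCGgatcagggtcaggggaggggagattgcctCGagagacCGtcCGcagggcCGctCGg
Pcca, chr14:122534486-122534605, promoter: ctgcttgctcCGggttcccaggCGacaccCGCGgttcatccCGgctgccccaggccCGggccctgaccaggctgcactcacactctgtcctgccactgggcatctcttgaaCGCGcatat
The 5 distal stretches held between 0 and 2 CpG each, and the 3 over starts held 7, 11, and 8. Over the 500 bp around each summit the counts were 1 for Lmo2, 8 for Gfi1, 7 for Klf6, 4 for Id2, and 4 for Etv6, against 46 for Usp48, 54 for Prrc2c, and 33 for Pcca. Lmo2 and Gfi1 encode regulators of stem cells, and the H3K27ac fold was 22.4 at the Lmo2 region, 50.7 kb from its nearest start, and 17.3 at the Gfi1 region, 23.2 kb from its nearest start.

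H3K4me1 without the other marks made up most of the map. The deposited WT lists hold 29659 H3K27ac peaks, 107392 H3K4me1 peaks, and 26289 H3K4me3 peaks, which cover 18.7, 64.9, and 29.2 Mb. Of the 108358 regions, 73614 (67.9%, exact 95% interval 67.7 to 68.2) had H3K4me1 alone, yet these covered only 44.8% of the bases. All 3 marks were present in 11067 regions (10.2%), which covered 27.7% of the bases. H3K4me1 with H3K4me3 was found in 8208 regions, H3K27ac with H3K4me1 in 7899, H3K4me3 alone in 3320, and H3K27ac with H3K4me3 in 2980. H3K27ac alone was the rarest class, with 1270 regions (1.17%). Intervals cover counting error only, since there is 1 library per mark and no replicate, and no test between classes was made.

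These counts rest on the lengths of the lists. When each list was cut to its 26289 peaks of highest −log10 q, the length of the H3K4me3 list, H3K4me1 alone fell to 13443 regions, all 3 marks to 5111, and H3K4me1 with H3K4me3 to 2777, whereas H3K27ac with H3K4me3 came to 8333 and H3K4me3 alone to 9460. H3K27ac alone then rose to 3263 and was no longer the rarest class. The order of the classes by number therefore depends on how many peaks each list holds. Read depth is not given by peak lists.

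**Figure D1:**
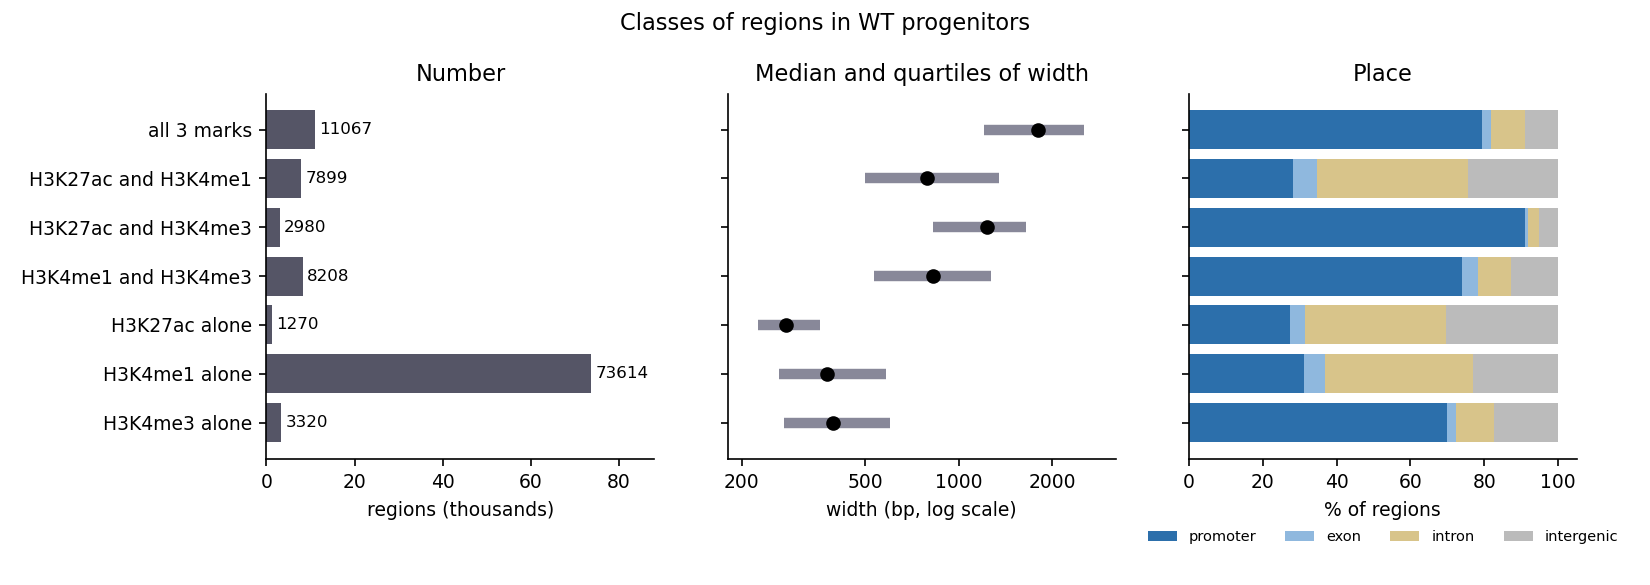
Number, width, and place of the 7 classes of regions in WT Lin- cells. The left panel gives the number of regions on an axis in units of 1000, with the count printed, the middle panel the median (point) and quartiles (bar) of the width in bp on a log axis, and the right panel the percentage of regions at promoters, exons, introns, and intergenic sequence. H3K4me1 alone is the most frequent class with 73614 regions, and regions with all 3 marks are the widest, with a median of 1802 bp.

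Regions with more marks were wider. The median width was 1802 bp with all 3 marks (quartiles 1209 and 2532), 1236 bp with H3K27ac and H3K4me3, 825 bp with H3K4me1 and H3K4me3, and 791 bp with H3K27ac and H3K4me1. The classes with 1 mark were narrow, with medians of 392 bp for H3K4me3 alone, 377 bp for H3K4me1 alone, and 278 bp for H3K27ac alone. With peaks up to 500 bp apart joined, the order of the classes with 2 marks turned, to 1688 bp for H3K27ac and H3K4me1, 1431 bp for H3K27ac and H3K4me3, and 1237 bp for H3K4me1 and H3K4me3. A wider region has more room for another peak, so width and number of marks are not independent. In 83.0% of the regions with all 3 marks at least 1 base lay under all 3, and in the other 17.0% the marks only met through neighboring peaks. The widest region of the map, with 34635 bp of merged peaks, lay at Zfpm1, which encodes the FOG1 partner of GATA1, and had 1 H3K4me1 peak, 3 H3K27ac peaks, and 2 H3K4me3 peaks (chr8:122292155-122326789). Next in width among regions with all 3 marks came 17882 bp at Rbm38, an RNA-binding protein gene, and 17108 bp at Plec, the plectin gene. The widest region with H3K4me1 alone (11382 bp) covered a start of Adgrg1, which encodes the adhesion receptor GPR56 of stem cells. Among regions of H3K4me3 alone the widest lay at Alox15 (3255 bp) and Epx (2478 bp), genes of eosinophils, and at Tox (2443 bp), a nuclear factor of T cell development.

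The classes separated by their place in the genome. Promoters, defined as 3000 bp on either side of any transcript start of GENCODE M21, held 91.0% of the regions with H3K27ac and H3K4me3, 79.5% with all 3 marks, 74.0% with H3K4me1 and H3K4me3, and 69.8% with H3K4me3 alone. They held 31.2% of the regions with H3K4me1 alone, 28.1% with H3K27ac and H3K4me1, and 27.5% with H3K27ac alone, so the 3 classes without H3K4me3 lay mainly in introns (between 38.0% and 41.0%) and between genes (between 23.1% and 30.5%). With promoters of 1000 bp on either side, these 3 promoter shares were 13.7%, 13.4%, and 14.5%. A transcript start itself lay within 76.5% of the regions with H3K27ac and H3K4me3 and 65.2% with all 3 marks. It lay within 38.7% of those with H3K4me1 and H3K4me3, 28.5% with H3K4me3 alone, 5.44% with H3K27ac and H3K4me1, 3.89% with H3K4me1 alone, and 2.76% with H3K27ac alone. Distances of distal regions (those outside promoters) to the nearest protein-coding start were alike in 4 classes, with medians of 15.3 kb for all 3 marks, 16.1 kb for H3K27ac and H3K4me1, 16.1 kb for H3K4me1 alone, and 16.2 kb for H3K4me1 and H3K4me3. The other 3 lay farther out, with medians of 21.1 kb for H3K27ac and H3K4me3, 21.2 kb for H3K27ac alone, and 25.4 kb for H3K4me3 alone. Of these, 25.7%, 23.9%, and 29.9% lay over 50 kb away, against 19.2% of all distal regions.

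Regions without H3K27ac lay at different distances from acetylated ones. The nearest region with H3K27ac was 7.54 kb away at the median for H3K4me1 alone, 15.1 kb for H3K4me1 with H3K4me3, and 27 kb for H3K4me3 alone. It was within 1 kb for 19.7%, 21.3%, and 23.9% of these regions, and over 50 kb away for 14.5%, 24.0%, and 37.8%. Among distal regions alone the order within 1 kb was the opposite, with 15.1%, 9.27%, and 5.99%. Among distal regions, the gene with the nearest coding start had H3K27ac at a start for 78.7% of the regions with H3K27ac and H3K4me1, 76.4% with all 3 marks, 72.0% with H3K4me1 alone, 66.6% with H3K27ac alone, and 49.4% with H3K4me3 alone, against 71.9% of all distal regions.

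Around starts the marks were layered. One start per protein-coding gene was used, the principal transcript of the annotation or else the first start, and 10914 of 21853 starts lay under an H3K4me3 peak. These peaks reached 1062 bp downstream (quartiles 744 and 1436) and 543 bp upstream (quartiles 292 and 862) at the median, and reached farther downstream at 78.4% of the starts. H3K27ac peaks covered 46.1% of these starts at 250 bp upstream, 35.5% at 50 bp upstream, and 65.0% at 200 bp downstream, with a dip just before the start. H3K4me1 lay outside H3K27ac: 15.8% of the starts themselves were covered, against 34.6% at 900 bp downstream and 29.9% at 450 bp upstream.

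The place of H3K4me1 at these starts moved with acetylation. Where H3K27ac lay within 1000 bp of the start (8596 starts), H3K4me1 covered 9.24% of the starts and flanked 46.1% on both sides within 3000 bp without covering them. Where H3K27ac was absent (2318 starts), H3K4me1 covered 927 of the starts and flanked 23.2% on both sides. H3K4me1 lay on the downstream side alone at 22.3% of all 10914 starts and on the upstream side alone at 9.32%, and 11.3% had none within 3000 bp.

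**Figure D2:**
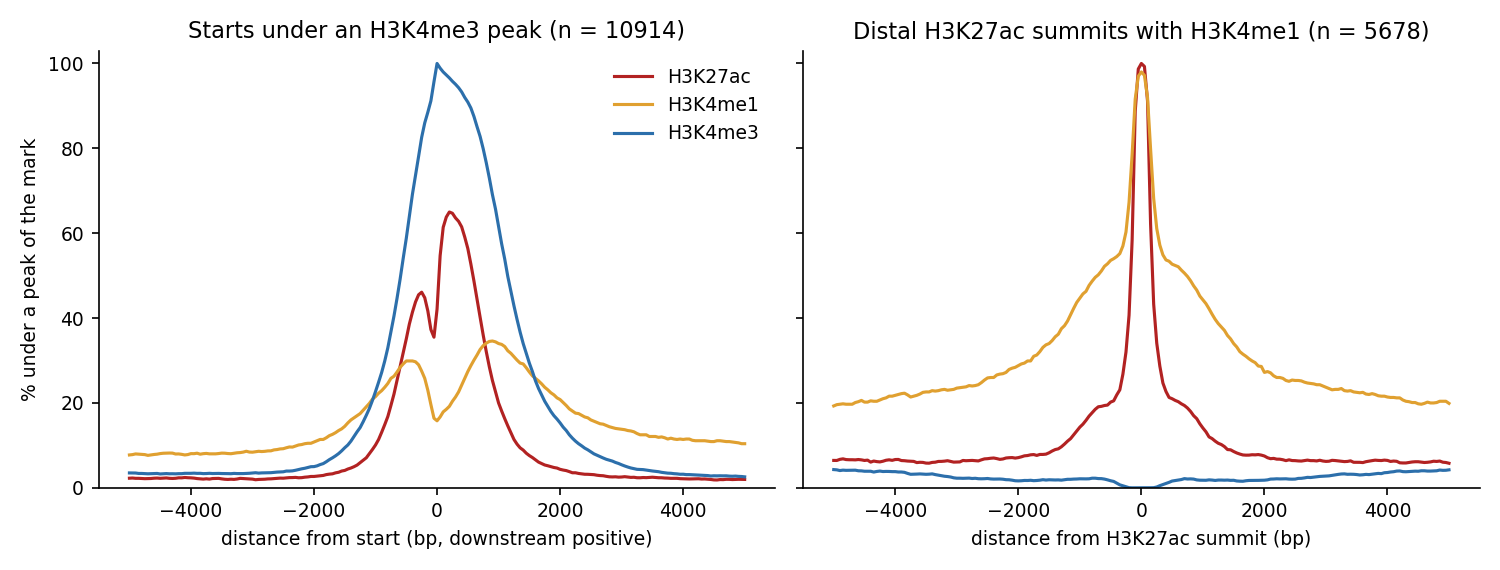
Percentage of positions under a peak of H3K27ac (red), H3K4me1 (yellow), and H3K4me3 (blue), in steps of 50 bp within 5000 bp. Left, 10914 starts under an H3K4me3 peak with transcription to the right, where H3K27ac dips before the start and H3K4me1 peaks 900 bp downstream. Right, summits of 5678 distal regions with H3K27ac and H3K4me1, where H3K4me1 covers 98.0% of the H3K27ac summits.

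In distal regions with H3K27ac and H3K4me1, peaks of H3K4me1 extended beyond those of H3K27ac. These 5678 regions were chosen for peaks of both marks that join, which largely sets the 98.0% of H3K27ac summits that lay under an H3K4me1 peak, and 921 distal regions had H3K27ac alone. The summits of both marks lay 75 bp apart at the median (quartiles 27 and 264), and within 200 bp of each other in 69.6%. H3K4me1 covered the longer stretch in 82.2% of these regions, with a median of 734 bp against 417 bp for H3K27ac. At 1000 bp from the summit 44.7% of positions on the lower-coordinate side were under an H3K4me1 peak, against 14.3% under H3K27ac. Peaks of neighboring regions are counted in these shares, which were 19.3% and 6.46% at 5000 bp on the same side. By the same choice, H3K4me3 peaks lie at none of these summits.

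The H3K27ac fold over the H3 library, a value of the authors that is only compared within its own list, was highest where H3K4me3 was also present. Its median was 12.6 in regions with H3K27ac and H3K4me3, 9.59 with all 3 marks, 5.22 with H3K27ac and H3K4me1, and 4.73 for H3K27ac alone. The highest values were 97.3 at Usp48, a ubiquitin protease gene, and 88.5 at Rfx3, a transcription factor gene. H3K4me3 folds were 47.5 at the median in regions with H3K27ac and H3K4me3, 36.2 with all 3 marks, 8.21 with H3K4me1 and H3K4me3, and 7.35 for H3K4me3 alone. The H3K4me1 fold had a narrow range, from 4.35 alone to 6.40 with H3K27ac. Outside regions with H3K4me3, the highest H3K27ac folds were 35.1 in an intron of Sipa1l1, 32.0 at 9500 bp from Syk, a tyrosine kinase gene of blood cells, and 31.9 at 4750 bp from Ifnar2, the interferon receptor gene. Peaks with a weak call made up more of the classes with 1 mark: a −log10 q of at least 5 was reached by 46.8% of the regions with H3K27ac alone and by 90.3% of those with all 3 marks for the same mark. For H3K27ac it was reached by 62.4% of the regions with H3K27ac and H3K4me1.

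The 500-bp windows around the summits divided the classes by CpG. The ratio of observed to expected CpG had a median of 0.754 with H3K27ac and H3K4me3, 0.603 with all 3 marks, 0.530 with H3K4me1 and H3K4me3, and 0.484 for H3K4me3 alone. It was 0.201 with H3K27ac and H3K4me1, 0.203 for H3K27ac alone, and 0.200 for H3K4me1 alone. Place and mark both moved with it: H3K27ac and H3K4me1 had 0.206 at promoters and 0.199 elsewhere, whereas all 3 marks had 0.688 at promoters and 0.304 elsewhere. A ratio of at least 0.6 was found in 79.7% of promoter windows with H3K27ac and H3K4me3, 61.6% with all 3 marks, 51.5% with H3K4me1 and H3K4me3, and 0.450% with H3K27ac and H3K4me1. Distal regions with H3K4me3 were also richer in CpG, to different degrees. This ratio was reached by 19.8% of those with H3K27ac and H3K4me3, 17.0% with H3K4me3 alone, 16.6% with H3K4me1 and H3K4me3, and 6.30% with all 3 marks. It was reached by 0.247% of those with H3K27ac and H3K4me1. Soft-masked repeats took up at least 50% of the window in 13.0% of the regions with H3K27ac alone, against 1.13% of those with all 3 marks.

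**Figure D3:**
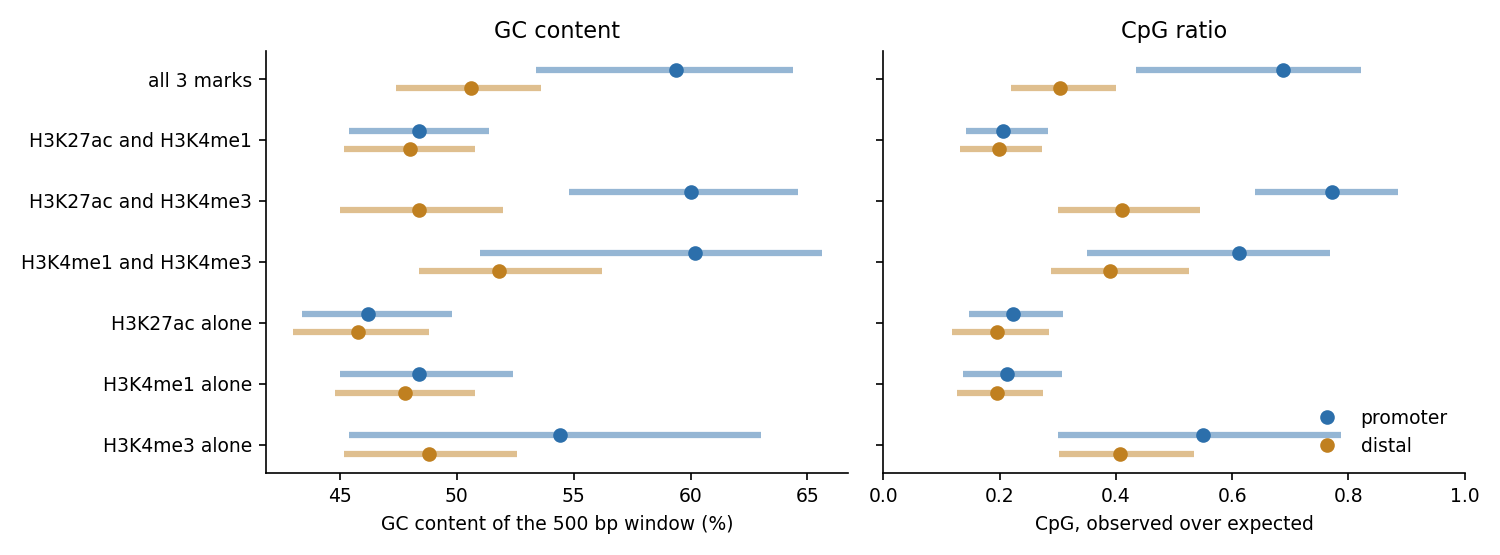
GC content (left, percent) and ratio of observed to expected CpG (right) of the 500-bp summit windows by class, with promoter regions in blue and distal regions in orange, the median as a point and the quartiles as a bar. The median CpG ratio is above 0.5 only at promoters with H3K4me3, from 0.550 to 0.772, and the upper quartiles of 3 distal classes with H3K4me3 also pass 0.5 (0.526 to 0.545).

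Motifs of ubiquitous promoter factors were counted in the same windows, which are centered on the H3K27ac summit in classes with that mark and on the H3K4me3 or H3K4me1 summit in the others. The part of this difference in position in the shares of motifs and in the CpG ratios was not tested. The ETS motif (CCGGAAGT) was in 9.37% of promoter windows with H3K27ac and H3K4me3 and 6.82% with all 3 marks, but in 91 of 6071 with H3K4me1 and H3K4me3 and 1.86% with H3K4me3 alone, against 2.56% of all promoter windows. YY1 (AAGATGGCG) was in 5.90%, 3.01%, 0.412%, and 0.733% of these classes, against 1.15% of all promoter windows, and NRF1 (GCGCATGCG) was in 3.06%, 2.25%, 0.873%, and 0.992%, against 0.870%. The SP/KLF motif (GGGGCGGGG) did not separate them, with between 14.0% and 15.9% in the 4 promoter classes with H3K4me3. The motifs of PU.1, RUNX, and GATA factors were in 7.06%, 14.9%, and 8.96% of all distal windows. The motif of PU.1 (GAGGAAGT), the myeloid and B cell factor, was in 8.05% of distal windows with H3K27ac and H3K4me1 (interval 7.35 to 8.79) and 9.65% with all 3 marks (interval 8.47 to 10.9), against 6.82% with H3K4me1 alone (interval 6.60 to 7.04). It was in 8.09% for distal H3K4me3 alone (interval 6.48 to 9.96) and in 7.07% for distal H3K27ac alone (interval 5.49 to 8.92). For distal H3K4me1 and H3K4me3 the share was 6.88% (interval 5.84 to 8.04), and for distal H3K27ac and H3K4me3 it was 6.34% (interval 3.74 to 9.96). The RUNX motif (TGTGGTT) was in 15.6% of distal windows with H3K27ac and H3K4me1, 14.3% with all 3 marks, and 15% with H3K4me1 alone, and the GATA motif (AGATAAG) in 8.31%, 8.24%, and 9.18%, and the intervals of these 3 classes overlap for both. In distal windows with H3K4me3 alone the RUNX motif was less frequent (10.6%, interval 8.75 to 12.7). The IRF motif (GAAANNGAA) was in 27.5% of distal windows with H3K4me3 alone, 24.6% with H3K27ac and H3K4me3, 21.8% with all 3 marks, and 20.6% with H3K4me1 and H3K4me3, against 15.7% of all distal windows. Both strands were searched, N stands for any base, and the ETS and PU.1 letters differ only before the shared GGAAGT. A match describes letters in a window and is not a bound site.

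Most transcription factor genes of stem and myeloid cells had all 3 marks at their starts, as did most housekeeping genes. A gene was given every mark with a peak within 1000 bp of any of its starts. Of 20 transcription factors of stem and progenitor cells, 19 had H3K27ac, against 45.5% of the 21938 protein-coding genes, all 20 had H3K4me3, against 60.4%, and 17 had H3K4me1, against 55.2%. All 3 marks were at 16 of them, against 37.0%, among them Gata2, Tal1, Lmo2, Erg, Fli1, Runx1, Hoxa9, and Myb. Among the others were Meis1 and Myc, which had H3K27ac and H3K4me3 without H3K4me1, and Mecom, a gene of long-term stem cells, which had H3K4me1 and H3K4me3 without H3K27ac. Of 15 myeloid factors, 13 had all 3 marks, including Spi1 (PU.1), Cebpa, Cebpe, Gfi1, and Irf8, and the other 2, Cebpb and Id2, lacked H3K27ac within 1000 bp of a start. Counted within 3000 bp, 0 myeloid factors had H3K4me1 and H3K4me3 without H3K27ac. All 15 housekeeping genes had H3K27ac, and 13 of them had all 3 marks.

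Fewer lymphoid than myeloid factors had H3K27ac at a start, 5 of 15 against 13 of 15. The lymphoid share (33.3%, interval 11.8 to 61.6) did not stand apart from the 45.5% of all protein-coding genes, and within 3000 bp of starts it was 7 of 15. Of the 15, 12 had H3K4me3, against 60.4% of all protein-coding genes, and 12 had H3K4me1, against 55.2%, both with intervals from 51.9% to 95.7% that hold these shares. H3K27ac was absent from 8 that had H3K4me1 with H3K4me3, a state found at 13.0% of all protein-coding genes. These 8 were the B cell factors Ebf1 and Pax5, the T cell factors Tcf7, Gata3, and Lef1, Tbx21 and Eomes of T and NK cells, and Foxo1. Ikzf1, Ikzf3, Bcl11a, and Tcf3 had all 3 marks, Pou2af1 had H3K27ac alone, and Bcl11b had no mark. Of 20 developmental regulators of other tissues, none had H3K27ac, 6 had H3K4me1 with H3K4me3 (among them Pax6, Neurog2, Lhx2, and Tbx5), 4 had H3K4me1 alone, and 10 had no mark, against 34.2% of protein-coding genes with no mark. Within 3000 bp of starts, 6 of them had no mark. Of 20 terminal genes of other tissues, 17 had no mark, among them Alb, Ins2, and Myh6, 2 had H3K4me1 alone, and Mbp, the myelin basic protein gene, had all 3.

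The counts of the lists of surface markers, lineage genes, receptors, and chromatin regulators stand beside 45.5% of all protein-coding genes with H3K27ac, 37.0% with all 3 marks, and 34.2% with no mark, and the lists are short. Of 12 surface markers of progenitors, 8 had H3K27ac (interval 34.9% to 90.1%), among them Kit, Cd48, Ptprc, and Cd93, while Cd34 and Procr had H3K4me1 with H3K4me3, Slamf1 had H3K4me3 alone, and Ly6a (Sca-1) had no mark. Within 3000 bp of starts, 0 of these 12 were without a mark. Of 12 markers of mature cells that depletion removes, 3 had H3K27ac (interval 5.49% to 57.2%) and 8 had no mark, among them Cd3e, Cd4, Cd8a, Ms4a1, and Ly6g. Cd79b of B cells and Itgam (CD11b) of myeloid cells had all 3 marks, and Klrb1c had H3K27ac alone. All 12 neutrophil granule genes had H3K4me1, against 55.2% of protein-coding genes. Mpo, Elane, Prtn3, and Ctsg, the primary granule genes of promyelocytes, had all 3 marks, as did S100a9. Of the genes of later granules, Ltf, Lcn2, and Mmp8 had H3K4me1 alone, Ngp and Mmp9 had H3K4me1 with H3K4me3 (as did S100a8), and Camp had H3K27ac with H3K4me1. Of 12 monocyte and dendritic cell genes, 7 had H3K27ac (58.3%, interval 27.7 to 84.8) and 4 had all 3 marks, including Ly6c2, Lyz2, and Cd68, and Ccr2, Irf4, and Batf3 had H3K4me1 with H3K4me3. Of 18 erythroid and megakaryocyte genes, 12 had all 3 marks, including Gata1, Klf1, Epor, and Vwf, whereas Alas2 and Car1 had H3K4me3 alone and Ppbp had no mark. Of 16 receptor genes, 11 had all 3 marks, including Kit, Flt3, and Csf1r, while Tek had H3K4me3 alone and Il7r and Cxcr2 had H3K4me1 with H3K4me3. Of 15 chromatin regulators, 13 had H3K27ac, and Tet1 and Dnmt3b had H3K4me1 with H3K4me3.

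**Figure D4:**
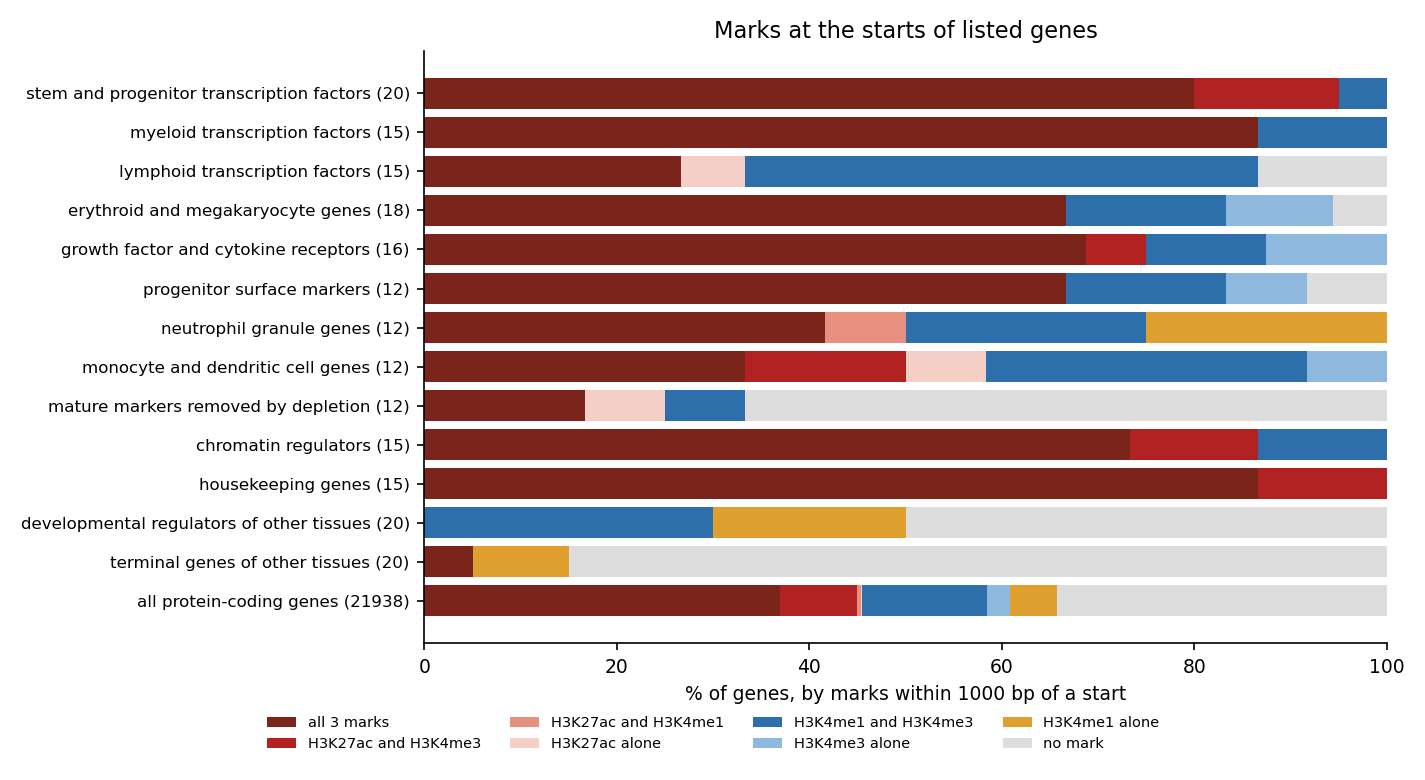
Percentage of the genes of each list by the marks within 1000 bp of their starts, with the number of genes in parentheses and all 21938 protein-coding genes in the lowest bar. Red shades stand for states with H3K27ac, blue and yellow for states without it, and gray for no mark. Myeloid factors have all 3 marks in 13 of 15 and lymphoid factors in 4 of 15.

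The 5678 distal regions with H3K27ac and H3K4me1 were spread over 2684 nearest protein-coding genes, 12.2% of all. The share with at least 1 such region was 7 of 20 for stem and progenitor factors, 7 of 15 for myeloid factors, 6 of 15 for lymphoid factors, 6 of 12 for progenitor surface markers, and 6 of 16 for receptors. It was 5 of 15 for chromatin regulators, 3 of 12 for monocyte and dendritic cell genes, 3 of 15 for housekeeping genes, and 3 of 20 for terminal genes. It was 2 of 12 for neutrophil genes, 2 of 12 for markers of mature cells, 2 of 18 for erythroid and megakaryocyte genes, and 0 of 20 for developmental regulators. These counts depend on the assignment: with every gene within 50 kb of a region counted, they were 9 of 15 for chromatin regulators, 5 of 12 for monocyte and dendritic cell genes, 5 of 15 for housekeeping genes, 7 of 20 for terminal genes, 5 of 12 for neutrophil genes, 4 of 18 for erythroid and megakaryocyte genes, and 2 of 20 for developmental regulators. The count over all 21938 protein-coding genes rose from 2684 to 4654. It changed less for stem and progenitor factors (9 of 20), myeloid factors (8 of 15), and lymphoid factors (5 of 15). Progenitor surface markers, receptors, and markers of mature cells stayed within 1.5 times of their first counts. Per gene the stem and progenitor factors had 4.05 on average, against 0.259 over all protein-coding genes, but the median was 0 in both and Etv6 and Runx1 held 55 of the 81 regions. Their stretch of genome nearest to a start was also longer, with a median of 122 kb against 44.9 kb, and per 100 kb the density was 1.19 against 0.214. Without Etv6 the mean was 2.58 and the density 0.762, and without Etv6 and Runx1 they were 1.44 and 0.447 (a comparison chosen after seeing the data). A density above that of all genes was not particular to this list: it was 2.27 for receptors, 0.805 for terminal genes, 0.793 for neutrophil genes, and 0.774 for housekeeping genes. Single genes weigh on these values too. Among receptors Cxcr4 held 22 of the regions, and among terminal genes Mbp held 5, against 1 each at Ttr and Myh7. The densities without these genes were not computed. The 10 genes with the most distal regions of this class were Etv6 with 32, Runx1 with 23, Cxcr4 with 22, Cdk6 with 21, Foxp1 with 20, Asap1 and Notch2 with 15 each, Atp8b4 with 14, and St3gal1 and Zfp36l2 with 13 each. Etv6 and Runx1 encode factors that stem cells need, Cxcr4 the receptor that holds them in the marrow, and Cdk6 a cell cycle kinase of progenitors. Density per 100 kb was 12.7 at Cdk6, 11.8 at Notch2, and 8.48 at Etv6, but 3.78 at Runx1, whose stretch is 608 kb long. Regions that share no base are counted apart even where they lie close together. With peaks up to 500 bp apart joined, the class had 5502 regions in place of 7899, at promoters and elsewhere. Counts and densities per gene were not made with this joining. Behind Etv6 and Runx1 among stem cell factors came Erg with 11 and Fli1 with 6, and among myeloid factors came Irf8 with 7 and Id2 with 6. Spi1, Gata2, and Tal1 had none of this class, although Tal1 had 2 distal regions with all 3 marks and Gata2 had 1.

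Distal regions with all 3 marks were at times the strongest sites of these genes. At Runx1 the highest distal H3K27ac fold was 21.4, in an intronic region with all 3 marks 23.1 kb from the nearest start, against 11.9 for the strongest region without H3K4me3. At Erg the highest was 24.7, 19.1 kb from the nearest start and also with all 3 marks. At Cxcr4 the highest was 22.8, 21.4 kb upstream, without H3K4me3, and at Kit 6.30, 114 kb upstream. At least 1 distal region with all 3 marks lay at 10 of the 20 stem and progenitor factors, 7 of 15 myeloid factors, 5 of 15 lymphoid factors, and 5 of 16 receptors, against 7.42% of protein-coding genes. The median stretches nearest to these genes were 122, 102, 178, and 56.0 kb, against 44.9 kb.

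The X chromosome differed from the autosomes in H3K4me1. Of protein-coding genes with H3K4me3 at a start, 84.2% on autosomes also had H3K4me1 there (10782 of 12806) but 40.4% on chromosome X (177 of 438, interval 35.8 to 45.2). The autosomes ranged from 73.9% (chromosome 13) to 89.0% (chromosomes 7 and 11), so X lay outside their range. H3K27ac was at 74.7% of these genes on autosomes and 66.7% on X, a smaller gap. H3K4me3 itself was less frequent on X, at a start of 46.2% of its protein-coding genes (interval 43.0 to 49.4) against 61.5% on autosomes. X held 7.82% of the regions with H3K27ac and H3K4me3 and 7.71% of those with H3K4me3 alone, against 0.997% of those with H3K4me1 alone and 1.48% of all regions. The median H3K4me1 fold of peaks was 4.21 on X and 4.55 elsewhere, whereas the H3K27ac fold was 7.90 on X and 6.67 elsewhere. The lists of the other genotypes, from libraries not used for the map, gave 33.0% on X against 85.4% on autosomes in Ep300Δ/Δ, 40.2% against 81.8% in Tet2-/-, and 42.4% against 84.3% in Ep300Δ/ΔTet2-/- cells. With only WT peaks of −log10 q of at least 5 the shares were 16.6% on X and 68.0% on autosomes, and with 3000 bp around starts they were 50.2% and 91.6%. Chromosome Y held 7 regions, none with H3K4me1. The sex of the mice behind each library is not in the labels, and its part in this result was not tested.

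**Figure D5:**
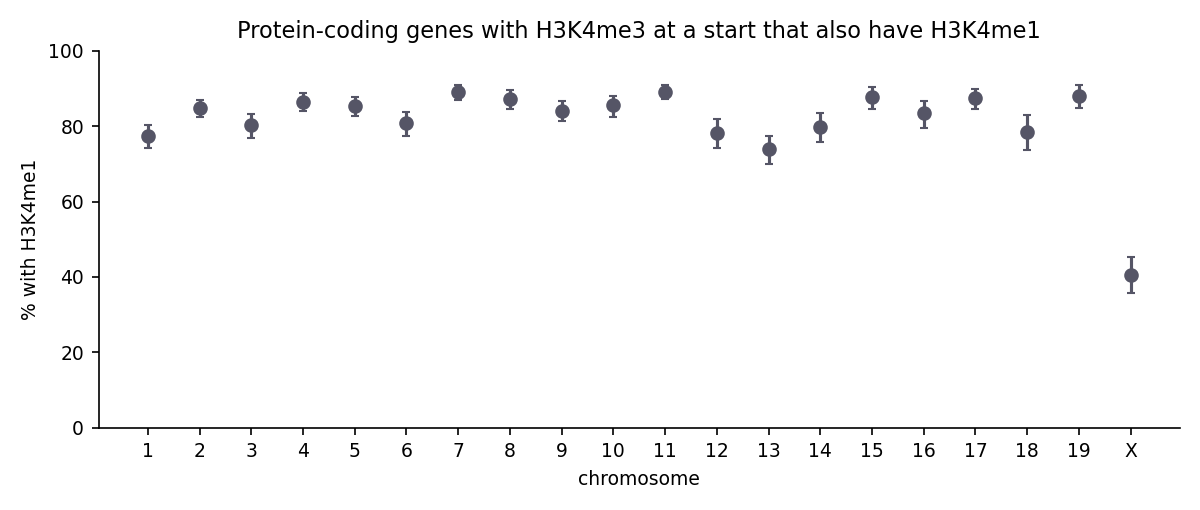
Percentage of protein-coding genes with H3K4me3 within 1000 bp of a start that also have H3K4me1 there, by chromosome, in WT Lin- cells. Points are percentages and bars exact 95% intervals for counting error, and chromosome X, at 40.4%, lies below every autosome, the lowest of which is at 73.9%.

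The class with H3K27ac and H3K4me1 was the least often found again with the same marks among the classes of more than 1 mark. In Ep300Δ/Δ cells, 72.1% of the WT regions with all 3 marks overlapped peaks of the same 3 marks, 66.0% of those with H3K4me1 and H3K4me3, 60.1% of those with H3K27ac and H3K4me3, and 29.4% of those with H3K27ac and H3K4me1. In Tet2-/- cells the shares were 75.2%, 64.5%, 68.8%, and 34.7%, and in Ep300Δ/ΔTet2-/- cells 67.6%, 66.1%, 58.9%, and 18.6%. The mark that was missing was H3K27ac: in the H3K27ac and H3K4me1 class it was found again in 32.1%, 41.2%, and 21.7%, whereas H3K4me1 was found again in 87.9%, 92.4%, and 88.9%. In regions with H3K27ac and H3K4me3, H3K27ac was found again in 88.7%, 91.4%, and 86.5%. H3K27ac alone was the least repeatable class, with no peak of any mark in 67.2%, 60.6%, and 67.1% of its 1270 regions. The WT H3K27ac list is the longest of the 4, with 29659 peaks against 22727, 24539, and 18327, and genotype, depth, and yield of a library cannot be told apart with 1 library each.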

How the data were processed

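ChIP-Seq for H3K27ac, H3K4me1, and H3K4me3 was done on Lin- bone marrow cells with 1 library per mark and genotype, and 12 peak lists were used of 20 samples. Before deposit, the authors used cutadapt for trimming, BWA 0.7.13 for alignment to mm10, and Picard for duplicates, and called peaks with MACS2 2.1.1.20160309 on pseudo-replicates against an H3 library. The deposited lists give the fold over H3, the −log10 P and −log10 q of each peak, its summit, and a score of the authors that was not used. A q under 0.05 was stated, but 267, 1924, and 36 peaks of the WT H3K27ac, H3K4me1, and H3K4me3 lists lie above it. All were kept. Scaling of the lists by the Drosophila spike-in is not given in the sources used here, and reads are described as single-end in the labels and paired-end in the methods.

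Peaks that shared at least 1 bp were merged and placed with GENCODE M21 on GRCm38.p6, in Python 3.11.15 with pandas 2.3.3, numpy 2.4.6, SciPy 1.17.1, and matplotlib 3.10.9. Promoters came first, then exons, introns, and intergenic sequence. Sequence windows were 500 bp around the summit of highest fold of H3K27ac, else H3K4me3, else H3K4me1, and 15 windows with undetermined bases were left out. Intervals are exact Clopper-Pearson at 95%. With no replicates, no test was made. Scripts were tested on simulated peaks, with the merging checked against bedtools 2.31.1. Members and gene lists were chosen with earlier results of these data known. Genes named were list members, with the most distal regions and those without a mark named by rule and others after their values were seen, the 10 genes with the most distal regions, and the 3 strongest and widest regions per class. The alternatives changed the threshold, list size, joining distance, promoter width, annotation, and gene assignment. Some list members are counted but not reported here by name.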

Additional observations from a re-analysis of the deposited data

How the results depend on the processing

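No paired analysis was possible because there is 1 library per mark and genotype and no value comes from a test. Numbers of regions were within 1.5 times of those reported when a mark had to cover 200 bp. With −log10 q of at least 5, 4697 regions had H3K27ac and H3K4me1, 4515 H3K27ac and H3K4me3, 42549 H3K4me1 alone, and 5364 H3K4me3 alone. With lists of equal size the numbers were 5111 for all 3 marks, 4101 for H3K27ac and H3K4me1, 8333 for H3K27ac and H3K4me3, 2777 for H3K4me1 and H3K4me3, 3263 for H3K27ac alone, 13443 for H3K4me1 alone, and 9460 for H3K4me3 alone. With peaks up to 500 bp apart joined they were 1561 for H3K27ac and H3K4me3, 757 for H3K27ac alone, 42438 for H3K4me1 alone, and 1752 for H3K4me3 alone, and median widths were 2584 bp for all 3 marks, 1688 bp for H3K27ac and H3K4me1, 1431 bp for H3K27ac and H3K4me3, 1237 bp for H3K4me1 and H3K4me3, 456 bp for H3K4me1 alone, and 453 bp for H3K4me3 alone.

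Promoter shares fell with promoters of 1000 bp to 73.6% (all 3 marks), 13.4% (H3K27ac and H3K4me1), 88.4% (H3K27ac and H3K4me3), 58.7% (H3K4me1 and H3K4me3), 14.5% (H3K27ac alone), 13.7% (H3K4me1 alone), and 54.5% (H3K4me3 alone). With protein-coding starts they were 74.3%, 19.3%, 86.9%, 67.9%, 18.7%, 23.3%, and 61.4% in the same order.

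With 3000 bp around starts, H3K4me1 and H3K4me3 without H3K27ac were at 0 myeloid factors, 1 receptor, 1 progenitor marker, 1 neutrophil gene, 0 markers of mature cells, and 2 terminal genes. H3K27ac was then at 3 terminal genes, and no mark at 0 progenitor markers and 6 developmental regulators. With −log10 q of at least 5, 0 markers of mature cells had H3K4me1 and H3K4me3 without H3K27ac. Distal H3K27ac and H3K4me1 was then at 1 neutrophil gene, 1 housekeeping gene, and 0 terminal genes. Counting every gene within 50 kb gave 4 erythroid, 5 neutrophil, 5 monocyte, 9 chromatin, 5 housekeeping, 2 developmental, and 7 terminal genes, and 4654 of all protein-coding genes.

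Also chosen after seeing the data, leaving out Etv6 gave 2.58 distal regions per stem and progenitor factor and 0.762 per 100 kb, and leaving out Etv6 and Runx1 gave 1.44 and 0.447. For starts with H3K4me3, 2 settings chosen after seeing the data gave H3K4me1 at 50.2% on chromosome X and 91.6% on autosomes (3000 bp), and at 16.6% and 68.0% (−log10 q of at least 5). The peak lists hold no read depth, so a missing peak cannot be told apart from a mark below the threshold. The causes of these shifts were not tested.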
